A study of Mus musculus with 9 samples.

Results

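The genes of the proteasome, the protein complex that degrades ubiquitin-tagged proteins, were followed with Ubd, a gene for a ubiquitin-like modifier, through 4 stages of the mouse mammary gland. Members were taken by gene symbol, as every gene whose symbol begins with Psma, Psmb, Psmc, Psmd, Psme, Psmf or Psmg and that has a probe set carrying that symbol alone, plus Ubd. This gave 47 of the 8251 genes that the MG-U74Av2 array names in this way, on 59 of its 12422 probe sets that are not controls. A probe set is the group of short oligonucleotides that reads 1 transcript, and each gene was represented by its brightest one. Of the 47 genes, 44 code for proteasome subunits, activators or assembly chaperones, 1 is Ubd, and 2 (Psmc3ip and Psme3ip1) share the first letters of a symbol but code for interacting proteins. RNA came from the whole inguinal (No4) gland of wild type C57BL/6J females, an inbred strain, with no transgene or treatment. Puberty (virgin females 6 weeks old) had 3 arrays. Pregnancy (day 14), lactation (day 10 after birth) and involution (day 4 after weaning) had 2 arrays each, and every array is a biological replicate. The ages of the females at the later stages are not given in the sources used here. Whole tissue mixes epithelium, fat, muscle and blood cells, so fewer cells of a type and less RNA per cell cannot be told apart.

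The proteasome is a barrel of stacked alpha and beta rings, the core particle, to which a regulatory particle with a ring of ATPases delivers unfolded substrates. Psmb5, Psmb6 and Psmb7 are the catalytic beta subunits of the constitutive core. Interferon gamma induces Psmb8, Psmb9 and Psmb10, which take the places of Psmb5, Psmb6 and Psmb7 to form the immunoproteasome, and also the activator cap genes Psme1 and Psme2. The immunoproteasome is abundant in leukocytes and is known for cutting the peptides that MHC class I molecules present. Ubd, also induced by interferon gamma and tumour necrosis factor, is attached to proteins and sends them to the proteasome. The question put to the data was whether inducible and constitutive genes kept in step over the 4 stages.

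The 5′ ends are shown for the 4 inducible genes, for Ubd, and for Psmb5 and Psmb6, the constitutive counterparts of Psmb8 and Psmb9. Psmb7, the counterpart of Psmb10, is not shown. Psmb8, Psme1 and Ubd each hold letters of a different element, Psmb9 and Psmb10 hold none, and the match in Psme1 lies after the annotated start. Each of these elements also has matches in constitutive genes. The antioxidant core held by Psmb5 and Psmb6 stands in 6 of 33 constitutive genes. The sequences are RefSeq windows of GRCm38.p6, from 250 bases before to 50 bases after the annotated start, on the strand of the gene. Capitals mark matches, on either strand, to the gamma-activated site TTCNNNGAA, the core of the interferon-stimulated response element GAAANNGAA, the NF-kappa-B-like letters GGGNNTTCC and the antioxidant response element core TGACNNNGC; each window shown holds at most 1 match.
Psmb8 (chr17:34197945-34198244, plus strand, gamma-activated site): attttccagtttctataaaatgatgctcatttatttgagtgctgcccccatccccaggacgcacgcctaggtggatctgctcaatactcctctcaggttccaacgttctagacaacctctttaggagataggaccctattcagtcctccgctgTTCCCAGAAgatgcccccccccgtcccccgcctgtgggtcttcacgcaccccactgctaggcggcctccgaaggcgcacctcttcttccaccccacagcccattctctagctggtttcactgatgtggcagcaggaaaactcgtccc
Psmb9 (chr17:34187281-34187580, minus strand, no match): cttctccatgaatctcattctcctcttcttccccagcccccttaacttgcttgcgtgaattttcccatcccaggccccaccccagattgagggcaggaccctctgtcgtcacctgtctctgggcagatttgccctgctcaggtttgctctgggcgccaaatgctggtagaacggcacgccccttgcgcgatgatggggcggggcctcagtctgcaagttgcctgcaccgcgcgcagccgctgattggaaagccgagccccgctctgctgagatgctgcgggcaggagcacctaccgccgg
Psmb10 (chr8:105938343-105938642, minus strand, no match): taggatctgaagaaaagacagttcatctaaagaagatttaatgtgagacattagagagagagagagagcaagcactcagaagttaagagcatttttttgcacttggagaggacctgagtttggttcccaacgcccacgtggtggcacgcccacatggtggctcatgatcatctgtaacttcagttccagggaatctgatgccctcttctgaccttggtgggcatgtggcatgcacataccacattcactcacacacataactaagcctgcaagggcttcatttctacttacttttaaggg
Psme1 (chr14:55578244-55578543, plus strand, interferon-stimulated response element core read on the opposite strand): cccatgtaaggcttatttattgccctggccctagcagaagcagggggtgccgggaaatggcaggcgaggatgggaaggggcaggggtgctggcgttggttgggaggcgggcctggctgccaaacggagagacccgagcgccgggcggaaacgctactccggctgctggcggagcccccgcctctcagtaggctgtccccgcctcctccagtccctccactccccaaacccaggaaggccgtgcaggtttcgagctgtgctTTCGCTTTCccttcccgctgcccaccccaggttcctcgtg
Ubd (chr17:37193642-37193941, plus strand, NF-kappa-B-like): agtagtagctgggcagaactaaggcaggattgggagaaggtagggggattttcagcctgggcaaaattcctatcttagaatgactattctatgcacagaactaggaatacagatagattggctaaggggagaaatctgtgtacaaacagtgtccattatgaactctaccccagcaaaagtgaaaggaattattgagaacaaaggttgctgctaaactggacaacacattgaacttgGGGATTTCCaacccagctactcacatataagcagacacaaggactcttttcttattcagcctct
Psmb6 (chr11:70525107-70525406, plus strand, antioxidant response element core): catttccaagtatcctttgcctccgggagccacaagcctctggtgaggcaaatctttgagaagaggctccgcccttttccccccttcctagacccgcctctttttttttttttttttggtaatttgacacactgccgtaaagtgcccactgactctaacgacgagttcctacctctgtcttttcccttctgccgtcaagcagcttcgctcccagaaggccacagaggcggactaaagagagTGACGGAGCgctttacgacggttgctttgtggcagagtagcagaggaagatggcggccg
Psmb5 (chr14:54617946-54618245, minus strand, antioxidant response element core): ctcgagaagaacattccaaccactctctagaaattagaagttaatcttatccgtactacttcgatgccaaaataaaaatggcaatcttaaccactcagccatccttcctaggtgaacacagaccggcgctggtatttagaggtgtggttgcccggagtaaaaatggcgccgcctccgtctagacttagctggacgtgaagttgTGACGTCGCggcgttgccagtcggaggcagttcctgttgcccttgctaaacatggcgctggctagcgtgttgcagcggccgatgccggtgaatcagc
A window was found for 40 of the 47 genes. The gamma-activated site letters stood in 8.3% of all 32851 mouse windows, in 1 of 4 inducible genes and in 2 of 33 constitutive genes with a window. The response element core stood in 8.56% of windows, in 1 of 4 inducible and in 6 of 33 constitutive genes. The antioxidant core, a short motif, stood in 12.4% of windows, in 0 of 4 inducible and in 6 of 33 constitutive genes, and the NF-kappa-B-like letters in 5.82% of windows, in 0 of 4 inducible and in 1 of 33 constitutive genes. These are matches of letters, and binding was not measured.

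The deposited intensities had a common scaling, and printed signals are those intensities after scaling all 9 arrays to 1 median. Arrays of 1 stage correlated at r = 0.947 to 0.975, against 0.724 to 0.935 between stages, and between 13.2% and 15.5% of tested probe sets lay under the floor of 20 at which signals were held before log2. On the lactation arrays the 10 brightest probe sets took 7.53% and 9.09% of all signal, against 3.47% to 4.31% on the others. The labelled tissue showed its markers: Csn3, the kappa-casein of milk, had 25140 and 19810 at lactation, against 6667 and 5772 at pregnancy. Of the 47 genes, 46 passed the filter of a mean signal above 20 in at least 1 stage and were tested, and Psmc3ip lay below the floor on all 9 arrays. Both probe sets of Psme2 also carry the symbol Psme2b, so this activator gene is given no value and the inducible group is 4 genes: Psmb8, Psmb9, Psmb10 and Psme1. The other 40 proteasome genes form the constitutive group.

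All 4 inducible genes were far lower at lactation than at any other stage. Between lactation and pregnancy 10 of 40 constitutive genes fell, 6 rose and 24 were not called. The 6 include Psmd2, which passed the filter only through lactation, and the dim Psmc4, which passed only through lactation and involution. Both are also counted in the F test and in the other comparisons that involve lactation, and their differences are a description only. By limma's F test over the 4 stages, with p adjusted over all 9783 probe sets tested, 22 of the 46 genes changed, beside a background of 51.6% of all tested probe sets. The 22 were 4 of 4 inducible genes, 16 of 40 constitutive genes, Ubd and Psme3ip1. Between pregnancy and puberty 4 genes were higher and 0 lower, where 11.4% of tested probe sets were called (6.2% higher and 5.22% lower). Between lactation and pregnancy 6 genes were higher and 16 lower, beside 41.2% of all probe sets (21.6% higher and 19.7% lower). The deposited scale without further scaling gave 4 higher and 21 lower, and a floor of 50 gave 3 higher and 16 lower. Between involution and lactation 12 were higher and 7 lower, beside 45.1% of all probe sets (22.1% higher and 23% lower). At lactation set against the average of the other 3 stages, 7 were higher and 16 lower, beside 51.9% of all probe sets (27.5% higher and 24.3% lower). The comparisons share arrays, so a level that is low at lactation alone enters 3 of them.

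Psmb8, the inducible counterpart of Psmb5, had the largest difference of the inducible genes. Its signal was 684, 797 and 812 at puberty, 728 and 828 at pregnancy, 124 and 134 at lactation, and 1020 and 898 at involution. Both lactation arrays lay far below the other 7, and both involution arrays lay above all others. Lactation was 6.03-fold lower than pregnancy (log2 change -2.59 ± 0.144 SE, adjusted p = 1.79e-05), and involution was 7.43-fold higher than lactation (2.89 ± 0.144, adjusted p = 9.52e-06). Pregnancy and puberty differed by 0.03 on the log2 scale (adjusted p = 0.993).

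Psmb9, which takes the place of Psmb6, followed the same order. Its signal was 281, 391 and 386 at puberty, 334 and 416 at pregnancy, 63.0 and 89.5 at lactation, and 447 and 387 at involution. The lactation arrays did not overlap the other stages, while puberty, pregnancy and involution overlapped each other. Lactation was 4.97-fold lower than pregnancy (log2 change -2.31 ± 0.235 SE, adjusted p = 0.00019), and involution was 5.54-fold higher than lactation (adjusted p = 9.49e-05). Psmb10, which takes the place of Psmb7, changed less. It read 398, 482 and 531 at puberty, 426 and 416 at pregnancy, 181 and 227 at lactation, and 588 and 601 at involution. Again both lactation arrays were the lowest of the 9, and the involution arrays were the highest. The log2 change was -1.05 ± 0.171 SE between lactation and pregnancy (adjusted p = 0.00168) and 1.55 ± 0.171 between involution and lactation (adjusted p = 0.000196), so Psmb10 was 2.08-fold lower at lactation and 2.93-fold higher at involution.

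Psme1, the alpha subunit of the interferon-inducible activator cap, had 665, 738 and 705 at puberty, 768 and 675 at pregnancy, 203 and 223 at lactation, and 848 and 702 at involution. The lactation arrays stood apart from the other 7, which overlapped from stage to stage. Lactation was 3.39-fold lower than pregnancy (log2 change -1.76 ± 0.144 SE, adjusted p = 6.77e-05), and involution was 3.63-fold higher than lactation (adjusted p = 3.67e-05). A dimmer second probe set of Psme1 lay under the floor on all arrays and was not tested. The 4 inducible genes had a median log2 change of 0.03 between pregnancy and puberty, -2.04 between lactation and pregnancy, and 2.17 between involution and lactation, beside 0.00, 0.07 and -0.03 over all tested probe sets. Against the mean of the other stages the lactation difference was -2.68 for Psmb8, -2.33 for Psmb9, -1.27 for Psmb10 and -1.78 for Psme1, all 4 past the threshold. In all 22 alternative settings run, each of the 3 comparisons that involve lactation kept its direction and its call for all 4 genes.

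**Figure D1:**
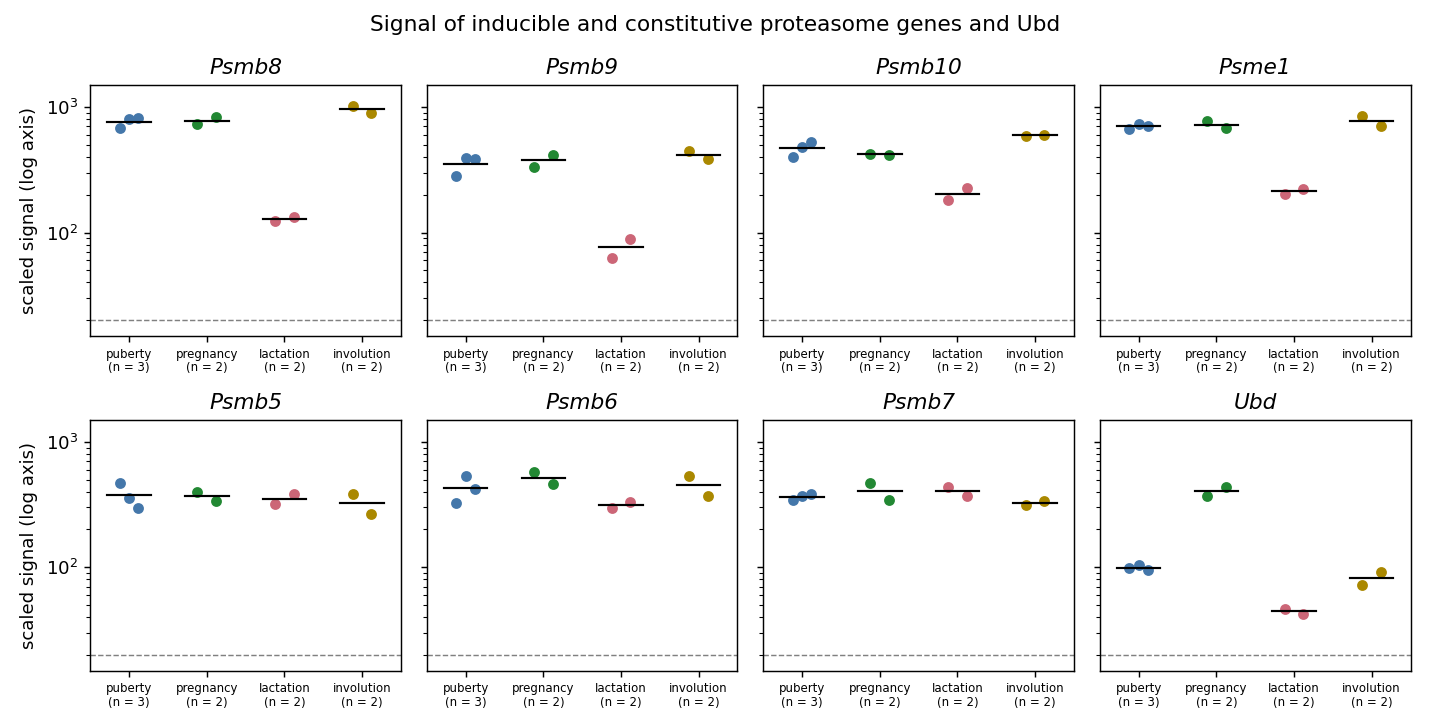
Scaled signal on a log axis (arbitrary units) against stage for Psmb8, Psmb9, Psmb10, Psme1, Psmb5, Psmb6, Psmb7 and Ubd, with 1 point per array, bars at stage means and a dashed line at the floor of 20. Psmb8, at 124 and 134 on the lactation arrays, drops out of line with Psmb5, at 319 and 386, and Ubd stands highest at pregnancy (369 and 437).

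Markers of blood cells and of fat were mostly lower at lactation than at involution, and keratins of the luminal epithelium in part. Between pregnancy and puberty 10 of 14 T cell genes and 4 of 8 B cell genes fell (medians -1.39 and -1.15). Of the macrophage and dendritic cell genes 3 of 14 fell (median -0.16), and 0 of 4 inducible genes were called (median 0.03). Over all tested probe sets, 6.2% rose and 5.22% fell between pregnancy and puberty, and 21.6% rose and 19.7% fell between lactation and pregnancy. Between involution and lactation 22.1% rose and 23% fell. The macrophage and dendritic cell list (14 genes measured) had a summed signal of 4818 to 5544 at puberty, 5099 to 5104 at pregnancy, 2500 to 3555 at lactation and 8161 to 10250 at involution. Between pregnancy and puberty 3 of its genes fell and 0 rose, between lactation and pregnancy 7 fell and 0 rose, and between involution and lactation 10 rose and 0 fell. The B cell and plasma cell list (9 genes) summed to 2398 to 2596 at puberty, 1038 to 1398 at pregnancy, 469 to 945 at lactation and 3091 to 3552 at involution, with Cr2 below the floor on all 9 arrays. Of its 8 tested genes, 4 fell between pregnancy and puberty, 3 fell between lactation and pregnancy, and 7 rose between involution and lactation. The T cell list (14 genes) summed to 1419 to 1603 at puberty, 585 to 619 at pregnancy, 590 to 787 at lactation and 1043 to 1222 at involution. Without Cd6, which alone rose between lactation and pregnancy (to 319 and 214 at lactation, a log2 change of 3.33 with adjusted p = 0.000269), the sum was 376 to 468 at lactation, against 561 to 591 at pregnancy. Of the 14 genes, 10 fell and 0 rose between pregnancy and puberty, 4 fell and 1 rose between lactation and pregnancy, and 10 rose and 1 fell between involution and lactation. On both lactation arrays 5 of them (Cd2, Cd3g, Cd5, Cd8a and Cd8b1) were at the floor, and Cd3e, another defining marker, had 26.2 and 20.1. White adipocyte markers (8 genes) summed to 12740 to 16890 at puberty, 7968 to 11130 at pregnancy, 5950 to 6027 at lactation and 14410 to 15790 at involution. Between lactation and pregnancy 6 of the 8 fell and 1 rose (median -1.60), and between involution and lactation 7 rose and 0 fell (median 2.12), with Pparg, the main regulator of fat cells, at the floor on both lactation arrays. The luminal epithelial list (11 genes) was carried by milk proteins and summed to 2867 to 4016 at puberty, 17870 to 17960 at pregnancy, 80580 to 102600 at lactation and 12750 to 16500 at involution. Between lactation and pregnancy 4 of its genes rose and 4 fell, and those that fell were the keratins Krt7, Krt8, Krt18 and Krt19. The 4 keratins summed to 1749 to 3174 at puberty, 3740 to 4257 at pregnancy, 1052 to 1355 at lactation and 2521 to 3692 at involution, and Krt7, Krt18 and Krt19 rose between involution and lactation. Skeletal muscle markers (10 genes) summed to 10420 to 25950 at puberty, 581 to 1564 at pregnancy, 822.5 to 936.5 at lactation and 806.5 to 1018 at involution. All 10 fell between pregnancy and puberty (median -4.12), so these 2 stages differ in muscle as well. The part of any of these cell types in the levels of the proteasome genes or of Ubd was not tested.

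Of the 3 constitutive catalytic genes 0 passed the F test, where all 3 of their inducible counterparts did, beside 51.6% of all tested probe sets. Psmb5, the chymotrypsin-like subunit, had 470, 359 and 296 at puberty, 399 and 336 at pregnancy, 319 and 386 at lactation, and 387 and 264 at involution. These ranges overlapped at all 4 stages. The log2 change was -0.06 ± 0.254 SE between lactation and pregnancy (adjusted p = 0.879) and -0.14 ± 0.254 between involution and lactation (adjusted p = 0.694). Psmb7, the trypsin-like subunit, had 346, 369 and 381 at puberty, 472 and 341 at pregnancy, 434 and 370 at lactation, and 316 and 336 at involution, where pregnancy and lactation overlapped. Its log2 change was -0.0017 ± 0.174 SE between lactation and pregnancy (adjusted p = 1) and -0.30 ± 0.174 between involution and lactation (adjusted p = 0.194). Psmb6, the caspase-like subunit, had 325, 530 and 422 at puberty, 572 and 464 at pregnancy, 294 and 329 at lactation, and 535 and 367 at involution. Its lactation arrays lay below pregnancy and involution and overlapped puberty. The log2 change of -0.73 ± 0.256 SE between lactation and pregnancy passed at adjusted p = 0.0492, a call lost in 11 of 22 alternative settings, and involution against lactation gave 0.51 ± 0.256 (adjusted p = 0.138).

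Each inducible gene was also set against its counterpart within an array, as a log2 ratio relative to the puberty mean of that ratio, which compares changes and not levels. The ratio of Psmb8 to Psmb5 was -2.41 and -2.58 on the lactation arrays, against -0.18 and 0.25 on the pregnancy arrays. The ratio of Psmb9 to Psmb6 was -1.96 and -1.62 at lactation, against -0.52 and 0.10 at pregnancy. The ratio of Psmb10 to Psmb7 was -1.61 and -1.06 at lactation, against -0.50 and -0.07 at pregnancy. All 3 ratios were thus lower on each lactation array than on each pregnancy array, and at involution the stage means were 0.53, 0.17 and 0.51 in the same order of genes.

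Over whole groups, the level of a group on an array was taken as the log2 signal minus the gene's mean over the stages, averaged over the group. The inducible level was 0.22, 0.50 and 0.52 at puberty, 0.38 and 0.45 at pregnancy, -1.65 and -1.38 at lactation, and 0.76 and 0.60 at involution. The constitutive level was -0.12, -0.09 and -0.10 at puberty, 0.20 and 0.10 at pregnancy, -0.01 and -0.06 at lactation, and 0.01 and -0.04 at involution. The inducible group thus stood lowest at lactation by a wide margin, and the constitutive group stood highest at pregnancy with a span much smaller than that of the inducible group. That small span belongs to a mean over genes that moved both ways. Between lactation and pregnancy single constitutive genes changed by -2.02 (Psmg2) to 1.74 (the dim Psmd2). The inducible minus constitutive level averaged 0.52 at puberty, 0.26 at pregnancy, -1.48 at lactation and 0.70 at involution, with a pooled SD within stages of 0.152. That difference changed by -1.74 between lactation and pregnancy and by 2.17 between involution and lactation, and no test was run on it because the groups were chosen with earlier results known.

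**Figure D2:**
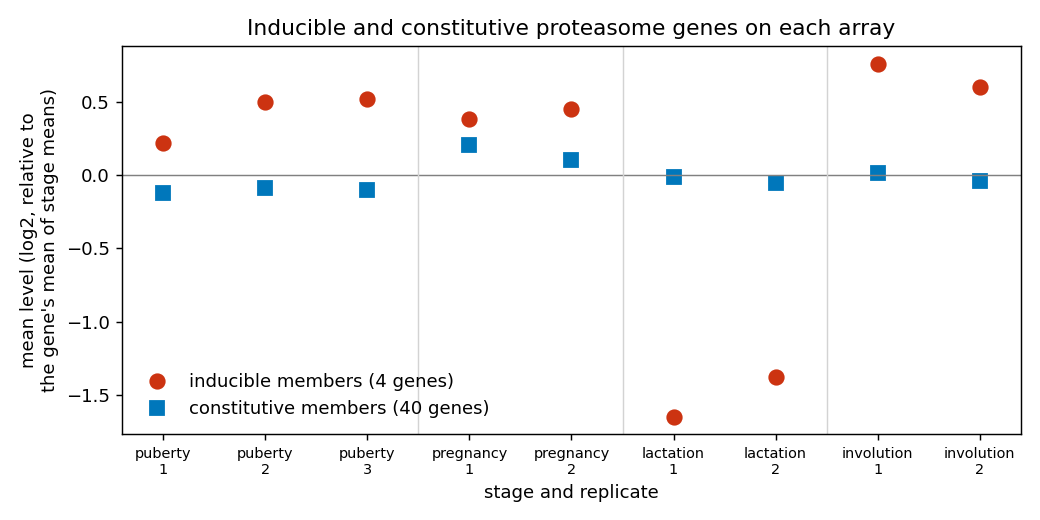
Mean level (log2, each gene centred on its mean over the stages) of the 4 inducible genes and of the 40 constitutive genes on each of the 9 arrays, ordered by stage. The inducible level lies at -1.65 and -1.38 on the lactation arrays and between 0.22 and 0.76 elsewhere, and the constitutive level stays between -0.12 and 0.20.

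Among the 40 constitutive genes, 24 (60%) had their highest stage mean at pregnancy, 10 (25%) at lactation, 4 (10%) at involution and 2 (5%) at puberty. Over all tested probe sets the shares were 17.9% at pregnancy, 42.3% at lactation, 23.1% at involution and 16.8% at puberty. Between pregnancy and puberty 3 of 40 rose and 0 fell, with a median log2 change of 0.24, beside 0.00 over all tested probe sets, of which 6.2% rose. Between lactation and pregnancy 16 of 40 were called, beside 41.2% of all tested probe sets. Of these, 6 rose, the dim Psmd2 and Psmc4 among them, and 10 fell (median -0.26, beside 0.07). Between involution and lactation 6 rose and 7 fell, with Psmd2 and Psmc4 among the 7 (median 0.15, beside -0.03).

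The alpha ring, whose 7 subunits form the gate of the core, had 1 gene past the F test, beside 51.6% of all tested probe sets. All 7 were higher at pregnancy than at puberty and lower at lactation than at pregnancy in value, with medians of 0.37 and -0.39 on the log2 scale, but only Psma5 passed the test. Psma5 had 346, 357 and 325 at puberty, 501 and 468 at pregnancy, 296 and 327 at lactation, and 490 and 402 at involution. Its pregnancy arrays lay above those of puberty and lactation, with log2 changes of 0.50 ± 0.131 SE between pregnancy and puberty (adjusted p = 0.0429) and -0.64 ± 0.144 between lactation and pregnancy (adjusted p = 0.00799). The call between pregnancy and puberty was lost in 12 of 22 alternative settings, and that between lactation and pregnancy in none. Of Psma1, Psma2, Psma3, Psma4, Psma6 and Psma7, 0 of 6 passed the F test.

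Of the 4 beta subunits without catalytic activity, read by their brightest probe sets, Psmb2 and Psmb3 were highest at lactation, Psmb4 was lowest there, and Psmb1 stood out at pregnancy alone. Psmb2 had 559, 511 and 585 at puberty, 689 and 656 at pregnancy, 909 and 981 at lactation, and 552 and 496 at involution. Its lactation arrays were the brightest of the 9, with a log2 change of 0.49 ± 0.129 SE between lactation and pregnancy (adjusted p = 0.0153) and -0.85 ± 0.129 between involution and lactation (adjusted p = 0.000958). Psmb3 had 663, 709 and 691 at puberty, 824 and 790 at pregnancy, 992 and 1190 at lactation, and 623 and 667 at involution. It too was highest at lactation, by 0.43 ± 0.131 SE over pregnancy (adjusted p = 0.0287), and fell by 0.75 at involution (adjusted p = 0.00199). Psmb4 had 735, 801 and 776 at puberty, 938 and 782 at pregnancy, 552 and 467 at lactation, and 817 and 852 at involution. Its lactation arrays were the lowest, with -0.75 ± 0.142 SE between lactation and pregnancy (adjusted p = 0.00349). Psmb1 had 386, 400 and 394 at puberty, 580 and 472 at pregnancy, 406 and 397 at lactation, and 412 and 391 at involution. It fell by 0.38 between lactation and pregnancy (adjusted p = 0.0495), a call lost in 13 of 22 alternative settings. The call of Psmb3 in that step was lost in 6 of 22.

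Probe sets of 1 gene did not always go the same way, and for Psmb1, Psmb4 and Psmd11 the direction rests on which one is read. A second probe set of Psmb1, with 180 and 222 at lactation against 437 and 494 at pregnancy, fell by 1.22 between lactation and pregnancy (adjusted p = 0.00158), while another had 57.4 and 48.1 at lactation and lay under the floor on the other 7 arrays, at least 2.63-fold higher at lactation than at pregnancy. It passed the filter only through lactation, so this is given as a description. The dim second probe set of Psmb4 had 42.6 and 58.4 at lactation and lay under the floor on both pregnancy arrays, at least 2.49-fold higher at lactation and opposite to its bright one. For Psmd11, a regulatory particle subunit, the brightest probe set was not called between lactation and pregnancy (-0.26, adjusted p = 0.382), another rose by 1.87 (adjusted p = 0.000492), and the remaining one fell by 0.80 (adjusted p = 0.0153). The brightest probe set of 8 genes (Psmb4, Psmb5, Psmb7, Psma3, Psmc3, Psmd9, Psmd12 and Psmg3) has a suffix by which the manufacturer marks probes that may match other transcripts or that were chosen under relaxed rules. The 4 inducible genes and Ubd have none in theirs.

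In the regulatory particle, 2 of the 6 ATPases that unfold substrates fell between lactation and pregnancy and 1, Psmc4, was counted as higher. Psmc3 had 234, 235 and 211 at puberty, 328 and 254 at pregnancy, 86.5 and 93.9 at lactation, and 251 and 274 at involution. Its lactation arrays lay well below the other 7 (log2 change between lactation and pregnancy -1.68 ± 0.169 SE, adjusted p = 0.000185), but its other probe sets, at -0.42 and -0.24, did not pass (adjusted p = 0.331 and 0.328). Psmc2 fell by 0.82 (adjusted p = 0.012). Psmc4 was dim, with 4.76, 13.9 and 22.4 at puberty, 20.6 and 17.7 at pregnancy, 59.0 and 33.8 at lactation, and 20.1 and 26.0 at involution. It passed the filter only through lactation and involution, and stood highest at lactation, so the difference is given as a description. Lactation was 1.14 higher than pregnancy on the log2 scale with the floor. The call that enters the counts was lost in 4 of 21 alternative settings, among them a floor of 50. Psmc1, Psmc5 and Psmc6 were called in none of the 3 steps between successive stages.

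Of the 11 non-ATPase subunits, which bind, deubiquitinate and position substrates, 3 fell between lactation and pregnancy and 1, Psmd2, was counted as higher. Psmd2, a large scaffold subunit that docks ubiquitin receptors and shuttles, had 10.0, 5.85 and 25.0 at puberty, 11.5 and 22.7 at pregnancy, 89.3 and 56.5 at lactation, and 4.50 and 8.64 at involution. Only its lactation arrays stood clearly above the floor. It passed the filter only through lactation, the stage where it is high, so the differences are given as a description with no test: lactation was 1.74 higher than pregnancy on the log2 scale with the floor, and at least 3.55-fold higher than involution, where both arrays were under the floor. Psmd7, the partner of the deubiquitinase Psmd14, had 264, 265 and 326 at puberty, 379 and 420 at pregnancy, 167 and 224 at lactation, and 326 and 420 at involution. Its lactation arrays were the lowest of the 9 (log2 change between lactation and pregnancy -1.05 ± 0.202 SE, adjusted p = 0.00382). Psmd8 had 270 and 256 at pregnancy, against 169, 193 and 186 at puberty, and the groups did not overlap. Pregnancy was 0.53 ± 0.142 SE higher (adjusted p = 0.0472), and this call was lost in 11 of 22 alternative settings. Psmd4, a ubiquitin receptor, fell by 0.47 (adjusted p = 0.0372) and Psmd8 by 0.50 (adjusted p = 0.0315) between lactation and pregnancy, calls lost in 8 of 22 and 5 of 22 alternative settings. Psmd14 itself, which removes ubiquitin chains, had a log2 change of -0.66 between these stages (adjusted p = 0.0523).

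**Figure D3:**
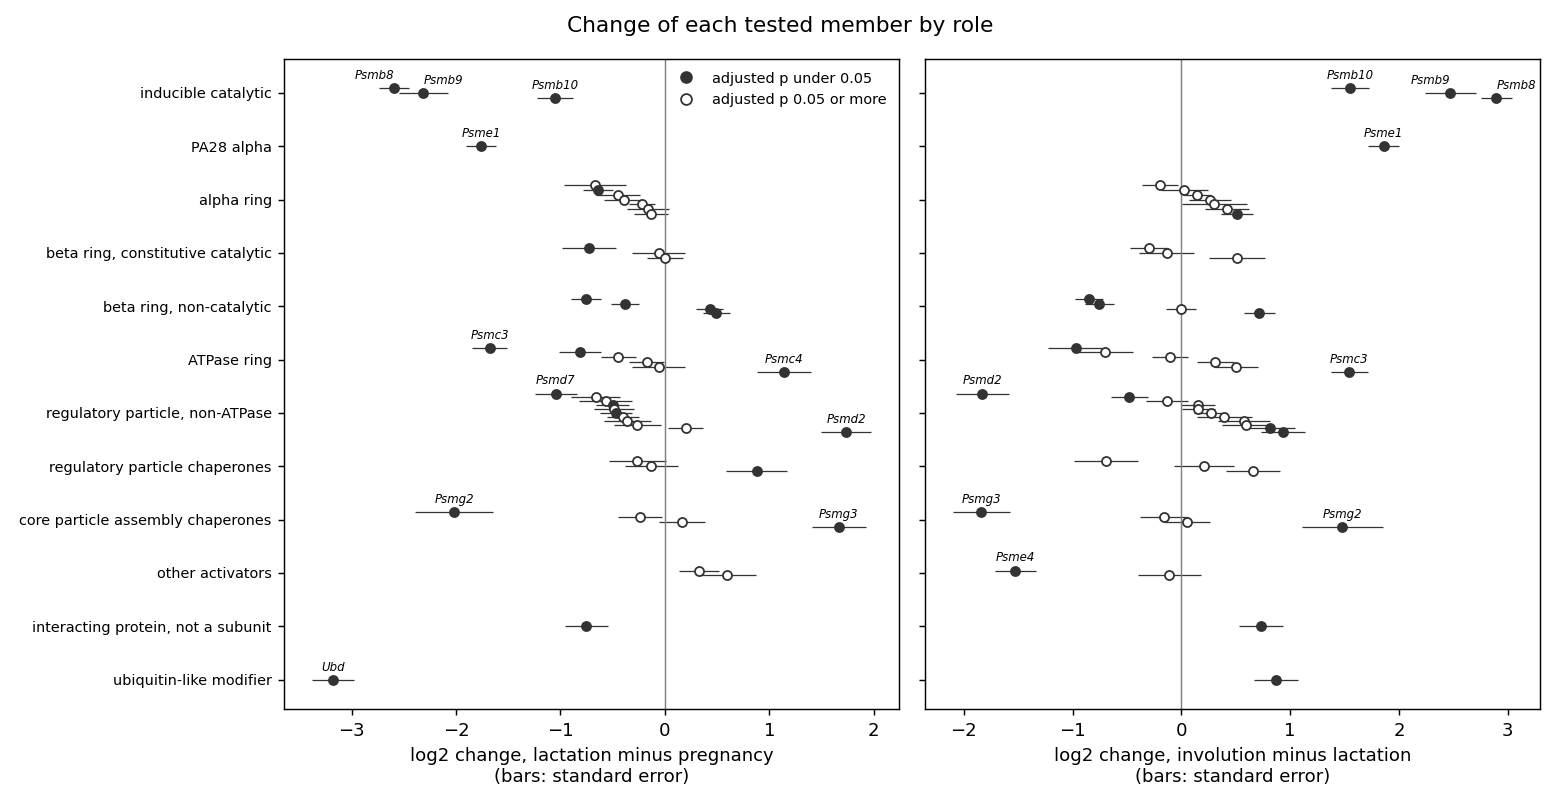
Log2 change with its SE for each tested gene, grouped by role, between lactation and pregnancy (left) and between involution and lactation (right), with filled points where the adjusted p is under 0.05. The inducible genes and Ubd lie at the low end on the left, from -3.18 (Ubd) to -1.05 (Psmb10), and the constitutive genes lie on both sides of 0, from -2.02 (Psmg2) to 1.74 (Psmd2, which passed the filter only through lactation).

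Among the genes that help to build the complex, Psmg3 and Psmg2 moved in opposite directions. Psmg3, a chaperone of alpha ring assembly, had 164, 124 and 174 at puberty, 125 and 185 at pregnancy, 491 and 473 at lactation, and 112 and 162 at involution. Its lactation arrays stood apart above the other 7, 3.17-fold over pregnancy (log2 change 1.67 ± 0.262 SE, adjusted p = 0.00145), and involution fell by 1.84 ± 0.262 (adjusted p = 0.000708). The second probe set of Psmg3, with 158 and 113 at lactation against 62.1 and 69.0 at pregnancy, rose by 1.03 (adjusted p = 0.0288). Psmg2, the partner of Psmg1 in an early assembly chaperone, had 43.7, 54.5 and 25.5 at puberty, 102 and 67.9 at pregnancy, 21.2 and 7.10 at lactation, and 63.8 and 51.7 at involution. It was lowest at lactation, where 1 array was under the floor, with a log2 change of -2.02 ± 0.372 SE between lactation and pregnancy (adjusted p = 0.00307). Psmg1 and Psmg4 were called in no step. Of the chaperones of the regulatory particle, Psmd9 rose between lactation and pregnancy (0.88 ± 0.291 SE, adjusted p = 0.0392) with 354 and 186 at lactation, against 132 and 147 at pregnancy, a call lost in 12 of 22 alternative settings, and Psmd5 and Psmd10 were not called.

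Psme4, an activator cap that binds the core without ATP, rose early and stayed high through lactation. Its signal was 178, 162 and 171 at puberty, 316 and 304 at pregnancy, 383 and 395 at lactation, and 164 and 112 at involution. Pregnancy and lactation did not overlap puberty and involution. Pregnancy was 1.82-fold higher than puberty (log2 change 0.87 ± 0.172 SE, adjusted p = 0.0134), lactation differed from pregnancy by 0.33 ± 0.188 (adjusted p = 0.197), and involution was 2.88-fold lower than lactation (-1.53 ± 0.188, adjusted p = 0.000342). The step between pregnancy and puberty missed the threshold in 4 of 22 alternative settings. Psme3, a nuclear activator related to Psme1, was called in no step. Psme3ip1, which binds Psme3, fell by 0.75 between lactation and pregnancy (adjusted p = 0.0177) and rose by 0.73 between involution and lactation (adjusted p = 0.0181).

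Ubd had its highest mean at pregnancy. Its signal was 98.4, 105 and 94.3 at puberty, 369 and 437 at pregnancy, 46.1 and 42.8 at lactation, and 72.0 and 91.9 at involution. No stage overlapped another, although puberty and involution lay next to each other. Pregnancy was 4.05-fold higher than puberty (log2 change 2.02 ± 0.184 SE, adjusted p = 0.00067), and the 4 inducible genes changed by -0.15 to 0.10 in that step with 0 of 4 called. Lactation was 9.04-fold lower than pregnancy (-3.18 ± 0.202, adjusted p = 2.26e-05), the largest fall among the 46 genes. Involution was 1.83-fold higher than lactation (0.87 ± 0.202, adjusted p = 0.00804), where the inducible genes rose by 1.55 to 2.89. Ubd kept its direction and its call in all 22 alternative settings in each of these 3 steps. Whether Ubd differed from the inducible genes in these steps was not tested.

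The other steps of class I antigen presentation moved only in part with the inducible genes. Of 8 tested genes, 1 rose and 2 fell between lactation and pregnancy (median -0.34), where 21.6% of all tested probe sets rose and 19.7% fell. Between involution and lactation 4 rose and 1 fell (median 0.57), where 22.1% of all tested probe sets rose and 23% fell. The 2 that fell were Tap1 and B2m. B2m fell by 0.58 between lactation and pregnancy (adjusted p = 0.0143) and rose by 0.69 between involution and lactation (adjusted p = 0.00597). Tap1, a peptide transporter subunit whose gene lies beside Psmb9 and Psmb8 on chromosome 17, had 313, 476 and 430 at puberty, 362 and 413 at pregnancy, 115 and 128 at lactation, and 639 and 536 at involution. Both lactation arrays were the lowest of the 9, as for Psmb8 and Psmb9, and both involution arrays were the highest, as for Psmb8 (log2 change between lactation and pregnancy -1.67 ± 0.209 SE, adjusted p = 0.00048). Tap2, the other transporter subunit, encoded in the same cluster, had 160 and 161 at lactation, against 164 and 230 at pregnancy, and was called in no step (-0.27 ± 0.227 SE, adjusted p = 0.36). H2-K1, a class I heavy chain whose probes may match related class I genes, had 3305 and 4489 at lactation, against 5236 and 4833 at pregnancy, and was not called there (adjusted p = 0.157), but rose at involution to 7155 and 8423, by 1.01 over lactation (adjusted p = 0.0037). Tapbp, which loads peptides, also rose in that step, by 0.70 (adjusted p = 0.00367). Canx, a chaperone of glycoprotein folding in the endoplasmic reticulum, ran the other way, with 359 and 376 at lactation, against 106 and 110 at pregnancy (1.76 ± 0.169 SE, adjusted p = 0.000147).

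A list of receptors, signalling genes and targets of interferon gamma and tumour necrosis factor held genes that fell at lactation and rose at involution. Of 21 tested, 1 rose and 10 fell between lactation and pregnancy (median -0.56), where 19.7% of all tested probe sets fell. Between involution and lactation 10 rose and 1 fell (median 1.12), where 22.1% of all tested probe sets rose. Between pregnancy and puberty 1 rose and 4 fell, where 5.22% of all tested probe sets fell. Ciita was the gene that rose between lactation and pregnancy and the gene that fell between involution and lactation. It had 105 and 122 at lactation, against 66.1 and 50.5 at pregnancy, and 60.1 and 56.4 at involution. Its log2 changes were 0.97 ± 0.236 SE (adjusted p = 0.0112) and -0.96 ± 0.236 (adjusted p = 0.0106). In each of these steps 10 of the 21 genes were not called. Gbp2, an interferon-induced GTPase, had 54.7 and 63.1 at lactation, against 192 and 297 at pregnancy (log2 change -2.02 ± 0.216 SE, adjusted p = 0.000238). Gbp3, of the same family, had 76.8 and 101 at lactation, against 367 and 418 at pregnancy (-2.15 ± 0.234, adjusted p = 0.000258). Both returned above their pregnancy level in at least 1 involution array, with log2 changes over lactation of 2.86 for Gbp2 and 2.33 for Gbp3. Irf1, a transcription factor that induces immunoproteasome genes, had 135 and 168 at lactation, against 235 and 239 at pregnancy, and 415 and 409 at involution (adjusted p = 0.0179 for lactation against pregnancy and 0.000329 for involution against lactation). Irf8, a factor of macrophages and dendritic cells that stands in both the interferon list and that marker list, had 5.19 and 22.5 at lactation, against 158 and 168 at pregnancy, with 1 lactation array under the floor (log2 change -2.94 with the floor, adjusted p = 1.79e-05). Ifng itself lay below the floor on all 9 arrays.

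Genes that work beside the proteasome were closer to the constitutive group. Of 26 such genes listed, 13 had a value and were tested: shuttles, transcription factors and other proteasome partners. No gene for ubiquitin itself is among the 13, of which 0 rose and 1 fell between lactation and pregnancy. In that step 41.2% of all tested probe sets were called. Between involution and lactation 2 rose and 1 fell, where 45.1% of all tested probe sets were called. Sem1, a small subunit of the regulatory particle whose symbol lies outside the rule, had 1287 and 1162 at pregnancy, against 616, 801 and 781 at puberty (log2 change 0.75 ± 0.18 SE, adjusted p = 0.0305), and it had 672 and 537 at lactation (-1.03 ± 0.198 against pregnancy, adjusted p = 0.00379). Sem1, read by a probe set chosen under relaxed rules, was thus highest at pregnancy, as Psma5 and Psmd8 were. Nfe2l2, a factor that binds antioxidant response elements, rose by 0.48 at involution (adjusted p = 0.0178), and Ubqln1, a shuttle that brings ubiquitinated proteins to the proteasome, fell by 1.08 in the same step (adjusted p = 0.00844).

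**Figure D4:**
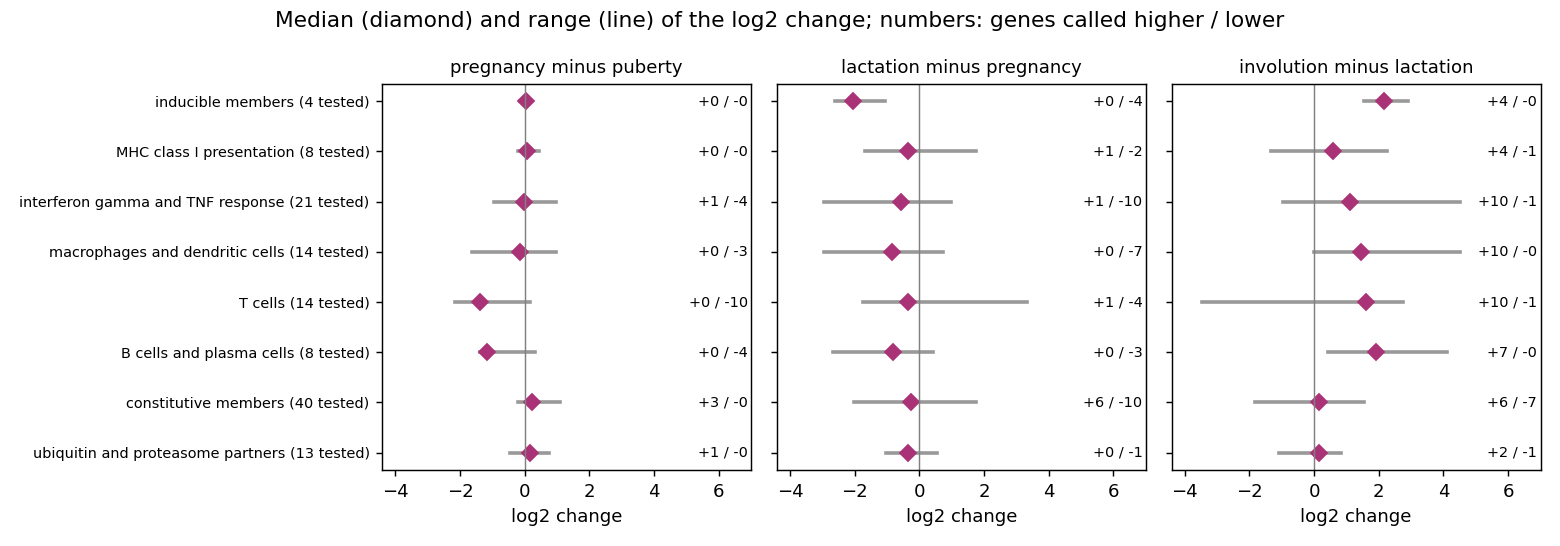
Median log2 change (diamond) and range (line) of 8 gene lists in the 3 steps between successive stages, with the number of genes called higher and lower printed beside each. Between lactation and pregnancy the inducible list has its median at -2.04 with 4 genes lower, and the constitutive list has its median at -0.26 with 6 higher and 10 lower.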

How the data were processed

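The authors deposited linear signal intensity for each probe set and array. The submitters' processing notes name MAS5 without a version, and the trimmed mean was 125.1 on all 9 arrays. After 66 control probe sets had been dropped, the remaining 12422 were scaled per array to 1 median (factors 0.948 to 1.06), raised to a floor of 20 and log2 transformed. Probe sets with a mean above 20 in at least 1 stage (9783) were tested with limma 3.58.1 in R 4.3.3 (lmFit, eBayes with a trend). An F test covered the 4 stages and contrasts covered 3 successive steps and lactation against the mean of the others. All 9 arrays shared 1 estimate of the spread, which is pooled over stages of 2 or 3 arrays, and the Benjamini-Hochberg adjustment ran over all 9783 at a threshold of 0.05. Each ± is a standard error.

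Genes were named from the platform annotation, in which 10833 probe sets carry 1 symbol, 396 several and 1193 were unlisted. For 10817 of the 10833 the current symbol was read from RefSeq's genes (assembly GRCm38.p6) by Entrez ID. Members and lists were chosen with earlier results of these data known, so no p-value was computed over a list. Values were described in full for the inducible and constitutive catalytic genes, for Ubd and Psme1, and for the 3 largest rises and 3 largest falls called in each comparison. Other members with values were chosen after those values were seen. Other pathway lists were named by up to 4 genes with the smallest F test p, with Tap2, B2m, Irf1, Ciita, Cd3e and Csn3 added. Promoter windows were searched on both strands with Python 3.11.15, data files were read with the R package data.table (version 1.17.8) and figures were drawn with matplotlib 3.10.9. The steps were tested on simulated data. Arrays have no read depth, and their number limits the precision.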

Additional observations from a re-analysis of the deposited data

How the results depend on the processing

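Other scalings (deposited scale, 75th percentile, quantile), floors (none, 50), an added constant of 16, other filters, other models and the mean of all probe sets of a gene were tried, and each array was left out in turn. The count of 4 genes called between pregnancy and puberty fell to 2 without the floor, with the added constant, with eBayes without a trend and with a plain analysis of variance, and it ranged from 1 to 6 when an array was left out: it was 2 without each puberty array, 1 without each pregnancy array, while Ubd kept its call in all settings. The 23 genes called between lactation and the mean of the others became 15 without lactation replicate 1 (15 to 25 over the arrays). Leaving out an array moved the inducible minus constitutive difference between -1.90 and -1.58 for lactation against pregnancy, between 2.02 and 2.33 for involution against lactation, and between -2.13 and -1.81 for lactation against the others. The replicate numbers did not pair the arrays (deviations correlated at -0.153 to 0.049). With the replicate number as a block the calls were 18 over the 4 stages, 1 between pregnancy and puberty, 16 between lactation and pregnancy, 18 between involution and lactation and 19 for lactation against the others. With the mean of all its probe sets, Psmb4 gave 0.283 between lactation and pregnancy and -0.202 between involution and lactation, and so turned sign. Changes near 0 also turned sign: between lactation and pregnancy Psmb7 gave 0.0218 at the 75th percentile and -0.235 to 0.232 when an array was left out, and Psmb5 gave 0.0542 with the mean of its probe sets and -0.196 to 0.0762 when an array was left out. Between involution and lactation Psmb5 ranged from -0.411 to 0.141 when an array was left out. Restricting members to probe sets without a suffix, an alternative chosen after seeing the data, called 18 genes between lactation and pregnancy. Single genes kept direction and call in 1112 checks, lost the call in 146 and turned sign in 10, and the cause was not tested. Genes near the floor, such as Psmd2 and Psmc4, are limited by signal over background.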
